A study of Homo sapiens with 16 samples.

Results

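γ-Tubulin peaks on DNA were compared between 2 peak lists: parental MCF10A cells and MCF10A cells with a stable γ-tubulin shRNA (knockdown cells), both synchronised by double thymidine block, which holds cells at the start of S phase, and harvested 2 h after its removal. MCF10A is an established, non-tumorigenic human breast epithelial line. An MCF10A peak was counted as kept when it overlapped a knockdown peak by at least 1 bp and as lost when it did not, and a knockdown peak with no MCF10A peak under it was counted as gained. The lists held 1547 MCF10A peaks and 84 knockdown peaks, that is 1631 of the 2962 peaks in the 4 lists of the series (MCF10A and knockdown cells, each at 1 h and 2 h). Each list joined 2 chromatin immunoprecipitation (ChIP) libraries, set against whole cell extract (WCE) libraries of the same cells and time. The knockdown cells were stably transfected and selected with Zeocin, their depletion is described as partial, and the labels do not say whether they were 1 clone or a pool. Peak lists hold no measure of γ-tubulin itself, so the knockdown could not be checked in them. As each list pools its libraries, no value below has a replicate error and no difference was tested. Lost and gained describe entries of a list, not an amount of bound protein. The depth of the libraries is unknown. An estimate put the knockdown ChIP reads at 1.08 times those of MCF10A. It used the lowest control level of each list, the factor that scales the ChIP signal and the shortest peak length. It thus rests on that length standing for the fragment length.

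γ-Tubulin is the tubulin that nucleates microtubules at the centrosome, where it works in a ring complex with the GCP proteins. A fraction of it is also found in the nucleus, where it has been tied to E2F-dependent transcription during S phase. Cells carry 2 closely related γ-tubulin genes, TUBG1 and TUBG2, next to each other on chromosome 17. A ChIP peak is a stretch of DNA where reads from the immunoprecipitate pile up above the control, here the extract of the same cells.

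Of the 1547 MCF10A peaks, 54 were kept (3.49%) and 1493 were lost (96.5%). Of the 84 knockdown peaks, 57 overlapped an MCF10A peak (67.9%) and 27 were gained (32.1%). The gained peaks were set apart by where they lay: 18 of the 27 (66.7%) fell in 3 short stretches of the genome, on chromosomes 17, 6 and 1, and none of those 18 was in either 1 h list. The other 9 were each the only gained peak within 100000 bp, some of them beside peaks of either list that were not gained. In MCF10A cells the kept peaks were longer on the median, at 411.5 bp against 181 bp for lost peaks, though the longest peak of all, at 2520 bp, was lost. The rule of 1 bp favours long peaks, which have more bases to overlap. Gained peaks had a median length of 160 bp, and none was longer than 374 bp.

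Gene names below are given for a locus only where its place in the hg19 build is general knowledge. No annotation of that build was used, so no gained peak was placed in an exon, an intron or a promoter. RefSeq's gene order for GRCh38.p14 was read only for neighbours. Coordinates are hg19 and count from 1.

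The steepest peaks of the knockdown list lay at the locus of the γ-tubulin genes. At the TUBG1 and TUBG2 locus, between chr17:40764958 and chr17:40818256, the knockdown list had 6 peaks, while the MCF10A 2 h list and both 1 h lists had none. Over their summits 24 to 46 ChIP reads were piled up. The first 4 peaks spanned 2079 bp on the TUBG1 side: chr17:40764958-40765089 with 28 reads and a fold enrichment over control of 8.43, chr17:40766286-40766413 with 36 reads and 11.7, chr17:40766518-40766657 with 27 reads and 8.89, and chr17:40766864-40767036 with 46 reads and 15.2. After a gap of 45160 bp, the last 2 lay on the TUBG2 side, at chr17:40812197-40812327 with 24 reads and a fold of 7.88 and at chr17:40818097-40818256 with 38 reads and a fold of 12.8. RefSeq lists 2 gene entries between TUBG1 and TUBG2, ATP5MGP7 and HMGB3P27, which need not code for a protein. These 6 peaks included all 5 of the highest fold in the knockdown list. Their control background was 1.14 to 1.36 times the lowest of the list, so the control was near its floor there.

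The other 2 groups lay in stretches that hold clusters of replication-dependent histone genes, which supply the histones that package newly copied DNA in S phase. In the cluster on chromosome 6, between chr6:26055992 and chr6:26271313, the knockdown list had 11 peaks, 8 of them gained. The MCF10A 2 h list had 4 peaks there, the knockdown 1 h list had 1 and the MCF10A 1 h list had 0. The 8 gained peaks had 13 to 20 reads and folds of 3.41 to 7.47. Their scores, the caller's measure of significance, were 14 to 79, all under the pooled median of 93 of both lists. The score of 14, at chr6:26271143-26271313, was the lowest of the knockdown list. The highest, with 20 reads, was chr6:26158279-26158504, and chr6:26157369-26157510 with 18 reads lay beside it. They lay 397 and 170 bp from the nearest MCF10A 2 h peak. The 4 MCF10A peaks of this stretch had 15 to 25 reads, so the read counts of the lists overlapped here. In the smaller histone cluster on chromosome 1, between chr1:149813339 and chr1:149859206, all 4 peaks were gained, and the other 3 lists had none. The 4 peaks had 14 to 20 reads, folds of 4.74 to 7.47 and scores of 27 to 79, again under 93. RefSeq names 55 such histone genes on chromosome 6 and 13 on chromosome 1, but which of them lay under a peak was not determined here.

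The 9 gained peaks with no other gained peak near them were of different kinds. One, chr16:56643113-56643280 with 17 reads, lay in the metallothionein cluster, a row of genes for small metal-binding proteins. RefSeq lists 16 metallothionein symbols on chromosome 16, not all of which need code for a protein. The locus was not particular to knockdown cells, since the MCF10A 2 h list had 2 peaks within it and the knockdown list 3. Another, chr6:30711271-30711445 with 22 reads, lay at IER3, an early response gene that acts on cell survival, where each 2 h list had 2 peaks. Those at chr13:98323436-98323550 with 18 reads and chr22:51198350-51198466 with 19 reads had a control of 1.21 times the lowest. The last 5 had both high reads and a high control: chr1:156186293-156186619 with 163 reads, chr2:133012803-133012922 with 116, chrX:108297707-108297830 with 120, chr9:79186784-79186898 with 58 and chr8:86823292-86823413 with 44. Their control stood at 5.54 to 42.8 times the lowest of the list. Of these 5, the peaks on chromosome 1 and on X were also in both 1 h lists, and the peak on chromosome 2 in the knockdown 1 h list. The gained peaks at the metallothionein and IER3 loci were in the knockdown 1 h list too. In all, 6 gained peaks lay within 1000 bp of an MCF10A 2 h peak, and 25 of the 27 were in neither MCF10A list.

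**Figure D1:**
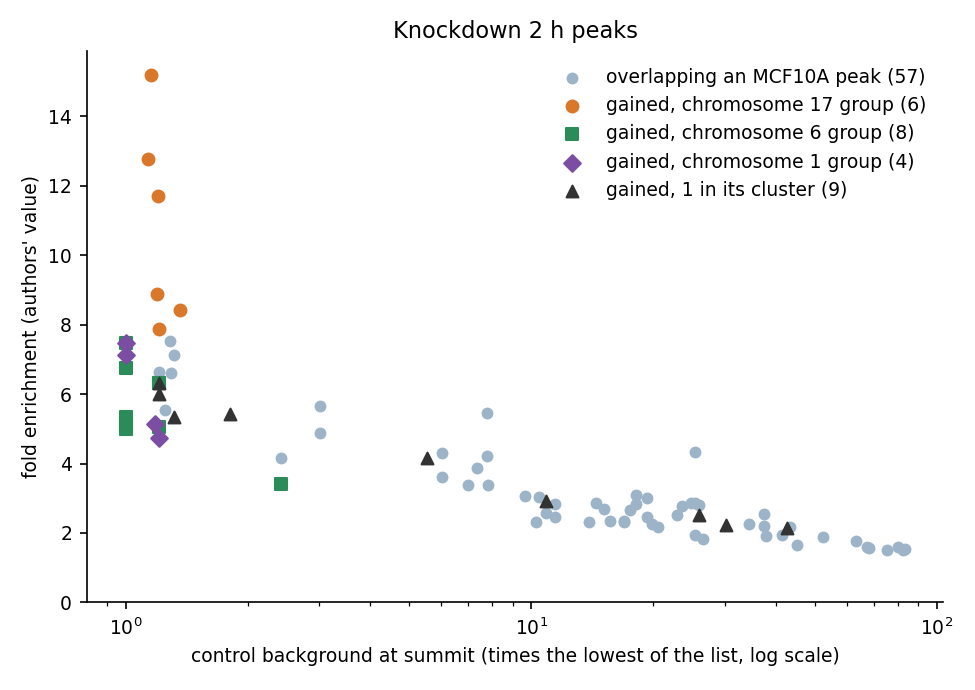
Each point is a peak of the knockdown 2 h list, with the control background at its summit on the x axis (times the lowest of the list, log scale) and the authors' fold enrichment on the y axis. The 6 gained peaks on chromosome 17 stand highest at 7.88 to 15.2, and most of the 57 peaks that overlap an MCF10A peak lie to the right, at a median background of 18.1.

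Most gained peaks had a low control. Of the 27, 20 (74.1%) had a background under 1.5 times the lowest of their list, against 5 of the 57 overlapping peaks (8.77%). The median was 1.21 for gained and 18.1 for overlapping peaks. Gained peaks had high folds on few reads, with a median fold of 5.99 on 20 reads, where the overlapping peaks had a median fold of 2.67 on 80 reads. They made up 8 of the 10 knockdown peaks of highest fold, but 3 of the 10 of highest score, the caller's measure of significance.

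By chromosome, 20 of the 27 gained peaks were on chromosomes 6, 17 and 1. Of the 57 overlapping knockdown peaks, 25 were on chromosomes 4, 2 and 16, which had 2 gained peaks between them. In MCF10A cells, chromosomes 10, 2, 8, 4 and Y held 859 peaks, 835 of them lost (97.2%, against 96.5% of the whole list). Their share of lost peaks was thus near that of all chromosomes. Of the 859, 131 were listed on Y (8.47% of the MCF10A list). A chromosome here is where reads were mapped, and whether the peaks on Y came from Y DNA was not tested. On chromosomes 3, 7, 9, 14, 15, 19 and 22, which held 164 MCF10A peaks, none was kept.

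**Figure D2:**
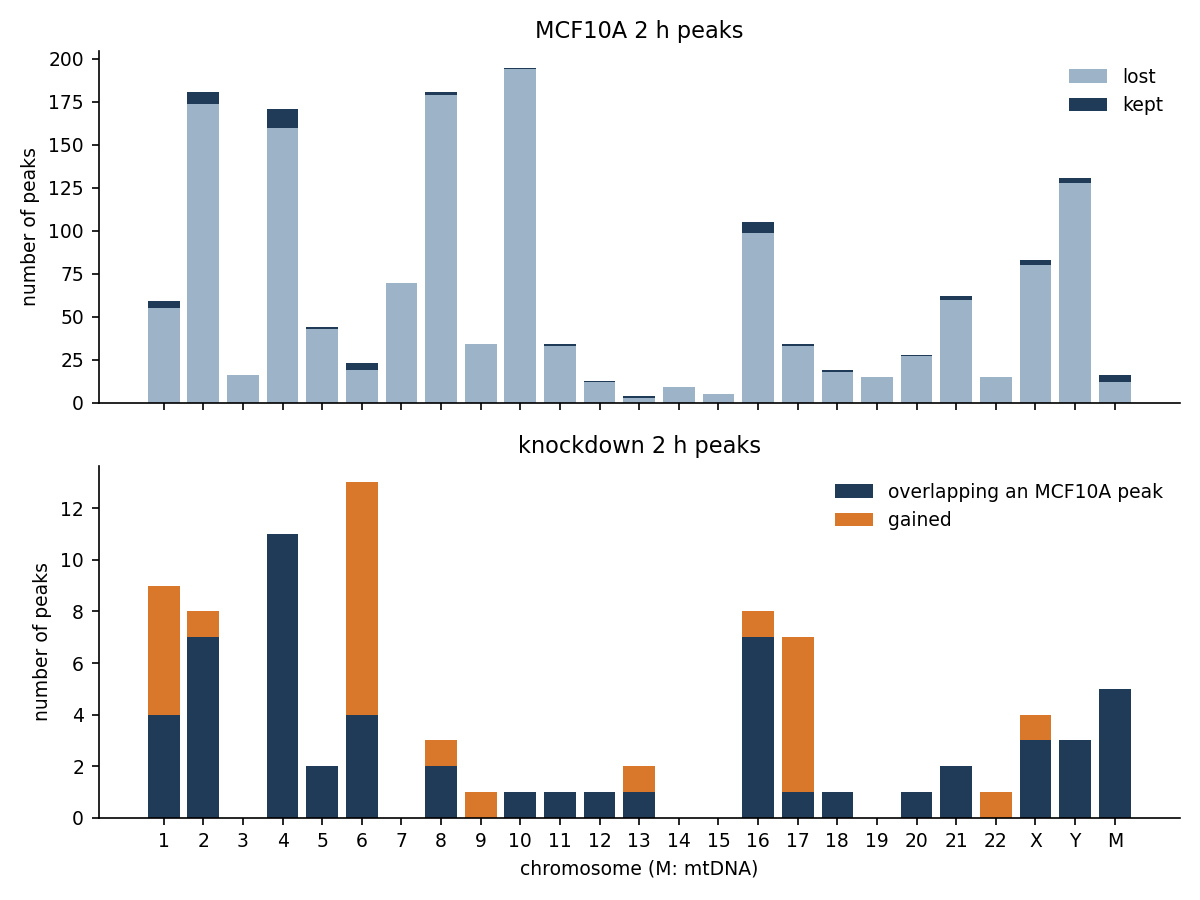
Number of peaks on each chromosome (M stands for mtDNA) in the MCF10A 2 h list, divided into lost and kept (top), and in the knockdown 2 h list, divided into peaks overlapping an MCF10A peak and gained peaks (bottom). The y axes differ in range, and the gained peaks pile up on chromosomes 1, 6 and 17.

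The 54 kept peaks met 57 knockdown peaks, since 3 of them were met by 2. In 46 of the 57 pairs (80.7%) the knockdown peak lay wholly inside the MCF10A peak, and in 49 it was shorter, with a median of 139 bp against 448 bp. The fold was lower in knockdown cells in 48 pairs, at a median of 2.67 against 4.11. The reads over the summit differed little: their median was 80 in knockdown cells and 83 in MCF10A cells, and in 56 of the 57 pairs the counts were within 1.5-fold of each other. Divided by the estimated ChIP depth of each list, the median ratio of knockdown to MCF10A reads was 0.945. Without that division the median ratio was 1.02, and knockdown had more reads in 31 pairs, fewer in 25 and the same in 1. The control background, in units of the lowest of each list, was higher in knockdown cells in 47 pairs, with a median of 18.1 against 9.43. The part of the control in the lower folds was not tested. These pairs are summits that passed in both lists, and the reads of knockdown cells at lost peaks are not known from the lists.

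Of the 10 pairs with the highest lower score of the 2 lists, the fold was lower in knockdown cells in 9 and the background higher in 9. All backgrounds of these pairs are given in units of the lowest of each list, not in reads. At chr1:567175-567444, in a stretch where part of mtDNA has been copied into chromosome 1, MCF10A had 182 reads on a background of 25.7 and knockdown 169 reads on 37.4. At chrX:61686659-61686829 both had 130 reads, on 19.9 and 25.3. At chr2:89869709, beside the centromere, the fold was 9.17 in MCF10A and 3.004 in knockdown cells on 114 and 104 reads, and the background was 6.81 and 19.3. At the start of chromosome 5, chr5:10032-11814, a fold of 10.99 stood against 4.22 on 49 and 61 reads, and on backgrounds of 2.10 and 7.76. The exception in fold was chr18:2251668-2251797, with 4.54 in MCF10A and 5.44 in knockdown cells on 60 and 79 reads and on backgrounds of 7.34 and 7.76. The exception in background was chr1:569324-569483, with 46.6 in MCF10A and 43.4 in knockdown cells on 182 and 168 reads.

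In 9 nuclear pairs the fold was higher in knockdown cells, and 5 of these were at the histone, metallothionein and IER3 loci where gained peaks also lay. At chr16:56643406-56643812 in the metallothionein cluster the fold was 3.49 in MCF10A and 7.53 in knockdown cells, on 18 and 24 reads. At chr6:26157681-26157881 in the histone cluster it was 3.33 and 5.55, on 23 and 17 reads. In 8 of the 9 pairs the control was lower in knockdown cells, and in 7 the reads, not divided by depth, were higher. Divided by the estimated ChIP depth, the median ratio of reads in the 9 pairs was 0.983. The highest knockdown score among them was at chr21:9826002-9826305, with a score of 81 in MCF10A and 510 in knockdown cells on 187 and 197 reads. The background there was 62.4 and 25.3 times the lowest of each list.

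**Figure D3:**
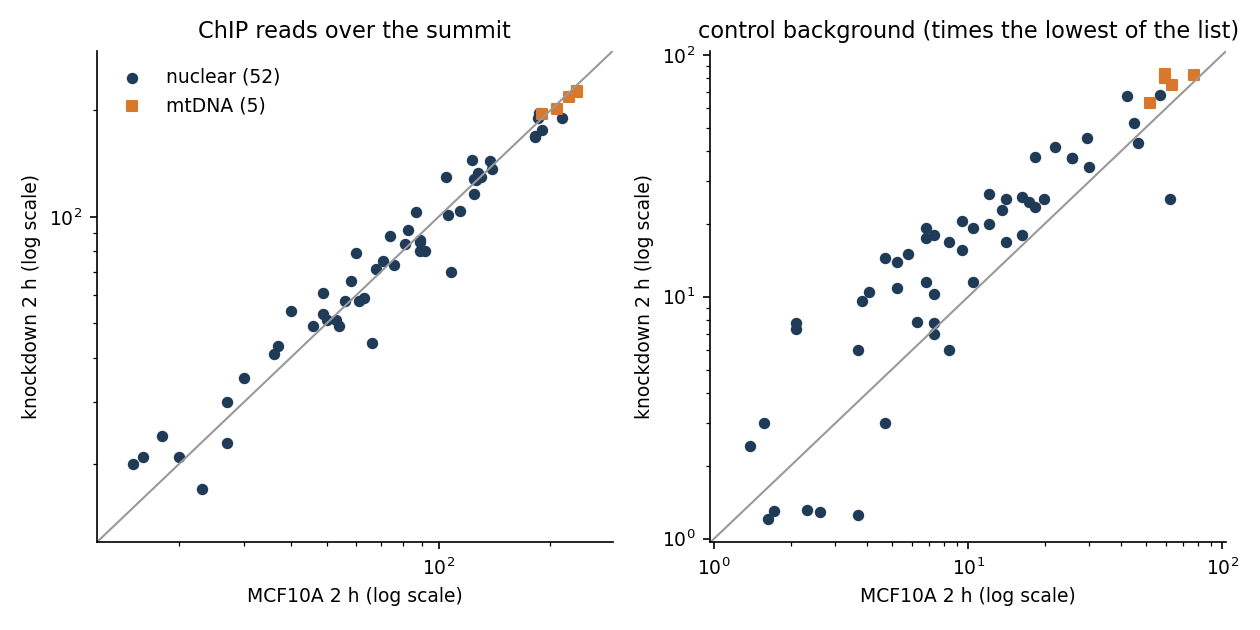
The 57 overlapping pairs, with the MCF10A 2 h value on the x axis and the knockdown 2 h value on the y axis (log scales; the line marks equal values), for ChIP reads over the summit (left) and for control background in units of the lowest of the list (right). Reads lie along the line (median 83 and 80), and 47 of the 57 backgrounds lie above it.

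Peaks of high score and peaks of great length were kept at higher shares, but most of them were lost too. The list was cut into 4 groups of nearly equal size. By score, 9.25% were kept in the uppermost group, against 1.57%, 1.02% and 2.08% in the groups below, counted from the lowest. By length the longest group kept 9.04%, and the shortest 1.29%. A longer peak meets the rule of 1 bp of overlap more easily, and the shares were not corrected for length. By control background the shares, from the lowest group to the highest, were 1.81%, 2.59%, 5.17% and 4.39%.

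**Figure D4:**
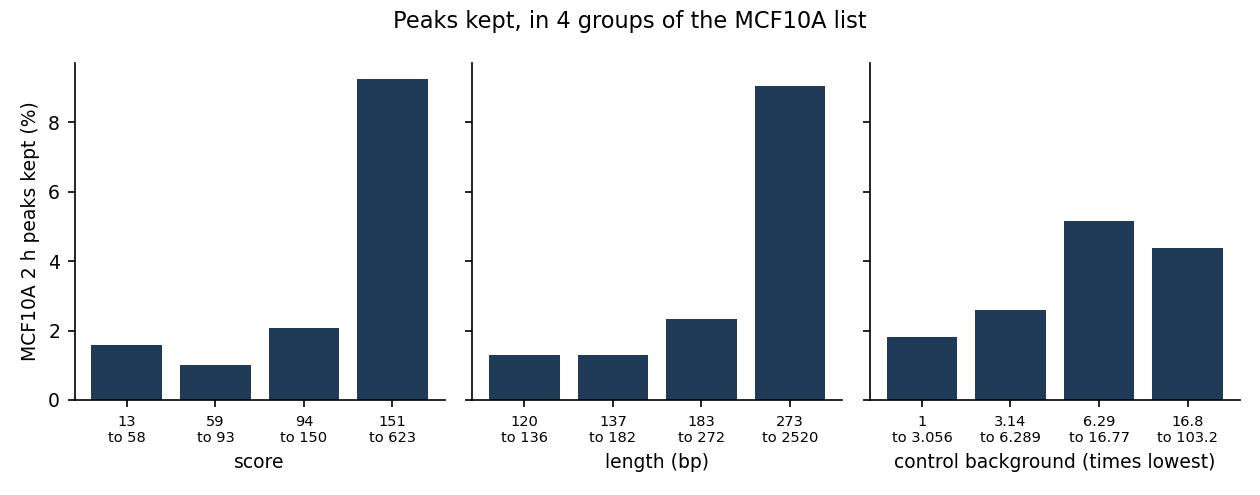
Share of MCF10A 2 h peaks that overlapped a knockdown peak, in each of 4 nearly equal groups of the list by score, by length and by control background (ranges on the x axes). The uppermost group by score kept 9.25% and the longest group 9.04%.

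Lost peaks came both from loci with no knockdown peak and from loci that also held one. Joined within 100000 bp, the peaks of both lists formed 267 clusters, of which 229 had MCF10A peaks and no knockdown peak, 30 had both and 8 had knockdown peaks alone. The 30 clusters with both held 657 of the lost peaks (44%), and 169 clusters were a single MCF10A peak. The 10 clusters with the most lost peaks held 581 of them (38.9%), and 7 of these 10 had a knockdown peak. The fullest, chr4:49093204-49319012, had 99 lost peaks beside 8 kept ones. On chromosome 8, chr8:128003899-128560162 held 63 lost peaks, and the other 3 lists had none there. Their control was raised, at a median of 9.92 times the lowest of the list, against 6.29 for all lost peaks. Their median fold was 2.61, against 3.76 for all lost peaks, and their highest score was 116. The 10 lost nuclear peaks of highest score, led by chr2:92291423-92291589 with a score of 520, were on chromosomes 2, 4, 8, 16 and X. All 10 were also in the MCF10A 1 h list. Those at chr4:49156145-49157096, chr4:49653566-49654551, chr16:46422040-46422244 and chr16:46434950-46435475 were in the knockdown 1 h list as well. The 10 lay 402 to 25050 bp from the nearest knockdown 2 h peak.

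The classes were then looked up in the lists of the 1 h harvest. Of the lost peaks, 641 (42.9%) overlapped a peak of the MCF10A 1 h list and 170 (11.4%) one of the knockdown 1 h list. Of the 54 kept peaks, 35 and 37 did. Of the 27 gained peaks, 2 overlapped the MCF10A 1 h list (7.41%) and 5 the knockdown 1 h list (18.5%), and 22 were in neither. Of the 57 other knockdown peaks, 34 (59.6%) and 39 (68.4%) did, and 12 were in neither.

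By p, the bar for a listed peak was higher in the knockdown list, whose lowest listed −log10 p was 5.95 against 5.00 in MCF10A. At the lowest control background this meant 12 reads against 10. By q, the corrected p, the bars were close, with a lowest listed −log10 q of 1.40 in the knockdown list and 1.35 in MCF10A.

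On mtDNA, the small circular genome of the mitochondrion that encodes subunits of the respiratory chain with the rRNAs and tRNAs to make them, the MCF10A list had 16 peaks over 10591 bp and the knockdown list 5 peaks over 835 bp, all inside MCF10A peaks. The extracts were made from nuclei. Of the 37 mtDNA genes, 26 lay at least in part under an MCF10A peak and 4 under a knockdown peak, namely RNR2 (the large rRNA, 8.6% of its length), TRNL1 (a leucine tRNA, 100%), ND1 (8.89%) and ND5 (11.3%), the last 2 being subunits of complex I. In MCF10A cells COX2 of complex IV and ND4L of complex I were covered whole, CYTB of complex III over 97.9% and ND5 over 89%, while ATP6, ATP8 and COX3 were under no peak in either list. Of the 13 protein-coding genes, 10 lay under an MCF10A peak and 2 under a knockdown peak. Reads over the mtDNA summits were 190 to 236 in MCF10A and 196 to 227 in knockdown cells, and these ranges overlapped. They were close to the highest in the lists (240 and 227), and whether a ceiling on the pileup made them alike was not tested. Folds at these summits were 1.36 to 2.32 and 1.498 to 1.76. The control was 52 to 102 times the lowest in MCF10A and 63 to 83.2 times in knockdown cells.

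**Figure D5:**
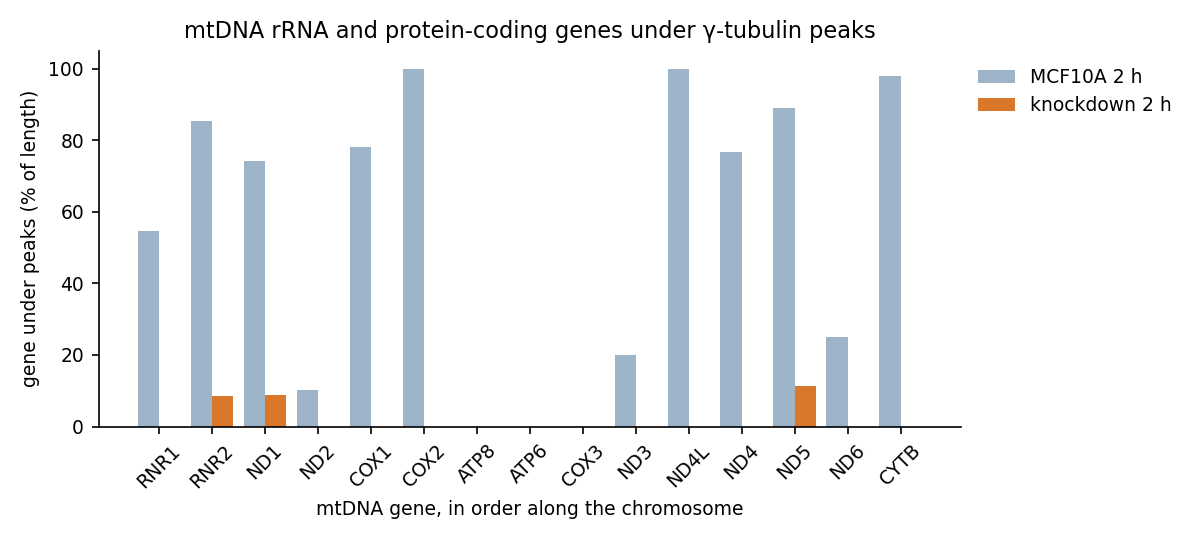
Share of the length of each mtDNA rRNA and protein-coding gene, in order along the chromosome, that lay under peaks of the MCF10A 2 h and knockdown 2 h lists (tRNA genes left out). Knockdown peaks touched RNR2, ND1 and ND5, at 8.6%, 8.89% and 11.3%.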

How the data were processed

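γ-Tubulin ChIP-seq was analysed from the 2 lists of the 2 h harvest, with the 1 h lists as a reference, which together rest on 16 libraries, 8 of them at 2 h. Per the methods, the authors mapped reads to hg19 with the Ensembl mitochondrial sequence using Bowtie 1.0.0, keeping unique reads, and called peaks with MACS2 2.1.1. The methods name differential calls, but the deposited lists have the form of calls against a control. Whether duplicate reads were removed is not given in the sources used here. Each deposited peak has a score (10 times −log10 q), a fold enrichment (a ratio to the control), and −log10 p and −log10 q values made by the authors. From fold and p, the pileup of ChIP reads and the control level under a summit were worked out by the MACS2 formulas, and the step was tested on simulated data. All summits (100%) came out as whole reads within 0.02. In the knockdown 2 h list they did so after the pileup was scaled by 0.943. Overlaps were counted in Python 3.11.15 with pandas 2.3.3, at 1 bp or more. The rule for named peaks took every gained peak, the 10 kept pairs with the highest lower score, the 10 lost nuclear peaks of highest score, the 10 fullest clusters and all mtDNA peaks, of which the text gives examples and ranges. Members and lists were chosen with earlier results of these data known, and the comparison of reads with background in overlapping pairs was chosen after the values were seen. mtDNA genes were taken from RefSeq, whose mitochondrial sequence is the same reference as Ensembl's. Nuclear gene lists (the γ-tubulin complex, other tubulins, S-phase genes) were not used here, as no hg19 annotation was given. No replicate was separate, so there was no test.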

Additional observations from a re-analysis of the deposited data

How the results depend on the processing

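No paired analysis was possible because the libraries were pooled before peaks were called and no result comes from a test, and leaving out a replicate was not possible for the same reason. In place of 54 kept peaks, 133 were counted if peaks within 1000 bp were shared, 15 at a score at or above the pooled median of 93 in both lists, 10 at a minimum length of 200 bp, 30 as clusters joined within 100000 bp and 5 with a control background under 3 times the lowest. In place of 1493 lost peaks, 782 were counted at the stricter score in both lists, 753 with that score in the MCF10A list alone, 647 at 200 bp, 648 after merging within 1000 bp, 229 as clusters and 377 at low background. These are 98.1%, 94.5%, 98.5%, 94.5%, 88.4% and 98.7% of the MCF10A peaks or clusters counted, against 96.5%, so the count moved with the number counted. In place of 27 gained peaks, 11 were counted at the stricter score in both lists, 8 with that score in the knockdown list alone, 5 at 200 bp, 16 after merging, 8 as clusters and 23 at low background. An overlap of at least 50% of the shorter peak gave 54, 1493 and 27. Against both MCF10A lists, 25 peaks were gained. With the median background of the list as the reference, the median gained peak stood at 0.111 of it. The planned assignment of genes within 5000 bp of a gained peak was not run, as no hg19 annotation was given. The depth of the libraries is unknown, and the read counts limit what a low-coverage locus can show.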
